A study of Mus musculus with 12 samples.

Results

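The genes described here are 10 genes of the NRF2-type antioxidant response and of xanthine oxidase: Nfe2l2, Keap1, Gclc, Gclm, Gsr, Txnrd1, Srxn1, Nqo1, Hmox1 and Xdh. They were chosen by name and function, with earlier results of these data known. All 10 were found among the 35521 genes of the files and among the 12555 genes that passed the filter on low counts. RNA-Seq was done in the 4T1 mouse mammary carcinoma line, a line derived from a BALB/c mouse, in 12 libraries, 4 for each of 3 groups. The cells called Tu-Gr1+CD11b+-primed 4T1 (Tu-primed below) had shared a well for 48 hours with Gr1+ cells that had been magnetically sorted from the tumors of 4T1 tumor-bearing BALB/c mice, on the other side of a membrane with 0.4 μm pores. Spl-Gr1+CD11b+-primed 4T1 cells (Spl-primed) had been cultured in the same way with Gr1+ cells from the spleens of such mice, and parental 4T1 cells were left untreated. The comparisons ask which genes differ after either coculture and which differ by the tissue that the Gr1+ cells came from. By the labels, the Gr1+ cells were taken from the mice on day 21 after injection. All 12 libraries come from a single cell line, and nothing in the labels says that libraries of a group came from separate cultures or mice, so the p-values measure the spread between these libraries, which may be technical.

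NRF2, the product of Nfe2l2, is a transcription factor that is held at a low level by KEAP1, an adaptor that hands it to a ubiquitin ligase for degradation. When reactive electrophiles or oxidants modify KEAP1, NRF2 protein accumulates and, together with small MAF proteins, binds antioxidant response elements near genes for glutathione synthesis, thioredoxin reduction, quinone detoxification and heme breakdown. This control acts mainly on protein stability, so mRNA levels of Nfe2l2 and Keap1 do not measure it. Xanthine dehydrogenase, encoded by Xdh, carries out the last steps of purine breakdown to uric acid, and its oxidase form passes electrons to oxygen and so makes superoxide and hydrogen peroxide. Xdh is also known in the mammary gland as a structural protein of milk fat secretion.

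In Tu-primed against parental cells, Xdh, Gsr, Txnrd1 and Gclc rose and Nqo1, Srxn1 and Keap1 fell. In Spl-primed against parental cells, only Gclc of the 10 genes was called higher, and Nqo1, Xdh, Hmox1, Keap1 and Srxn1 fell. Gsr and Txnrd1 had log2 values there of 0.23 and 0.20, close to the 0.28 and 0.22 in Tu-primed cells. Their edgeR adjusted p in Spl-primed cells was 0.0568 and 0.0511, and neither was called between the primed groups. Between the primed groups, Xdh was 1.91-fold and Hmox1 1.2-fold higher in Tu-primed cells, whereas Nqo1 and Srxn1 were lower, at 0.702 and 0.848 of their level in Spl-primed cells. The antioxidant genes thus did not change in a single direction, and Xdh was the member called in opposite directions in the 2 primed groups. Because the cells of a well were lysed together, fewer cells with a transcript and less of that transcript per cell cannot be told apart.

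Levels are CPM, the counts scaled to library size, and differences between groups are log2 fold changes of these levels. A gene was called when the quasi-likelihood test of edgeR, adjusted by the Benjamini-Hochberg method over all 12555 genes, gave an adjusted p under 0.05. In Tu-primed against parental cells, 4 of the 10 genes were called higher and 3 lower, where 31.2% of all tested genes were called higher and 28.0% lower. In Spl-primed against parental cells, 1 was called higher and 5 lower, against 25.7% and 22.5% of all genes. In Tu-primed against Spl-primed cells, 2 were called higher and 2 lower, against 4.66% and 2.97% of all genes. Because the 10 genes were chosen with earlier results known, these shares do not test them as a set. The libraries of both groups did not overlap for 4 of the 10 genes in the first of these comparisons (55.5% of all genes), for 5 in the second (39.6%) and for 6 in the third (17.0%). The median log2 fold change of the 10 genes was 0.06, -0.16 and 0.02 in the 3 comparisons, where the median of all tested genes was 0.02, 0.02 and -0.01. The comparisons with parental cells share the parental libraries, so they are not independent of each other.

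**Figure D1:**
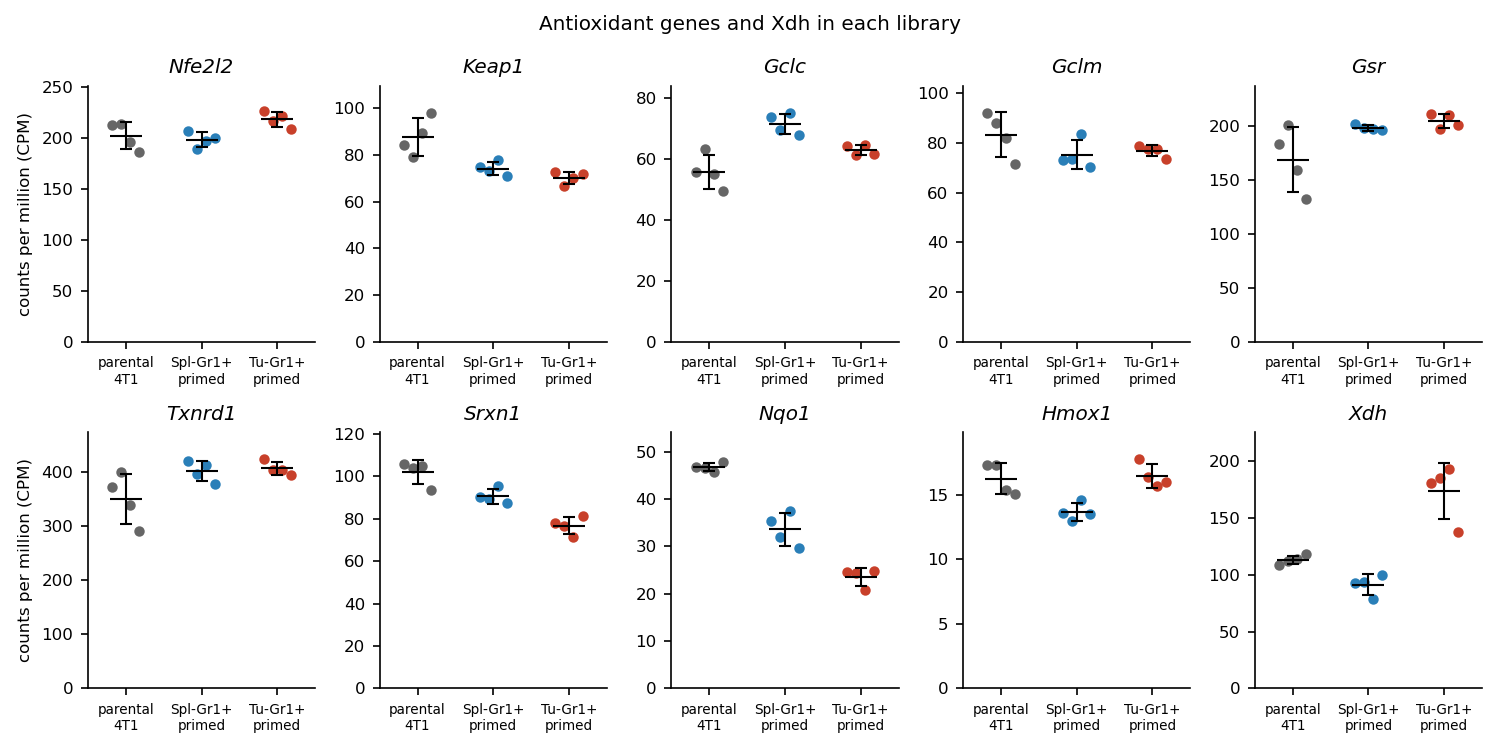
CPM of the 10 genes in each of the 12 libraries, by group, with the mean and SD of 4 libraries as bars. Nqo1 lies at 45.8 CPM or more in parental libraries, between 29.6 and 37.5 in Spl-primed and at 24.8 or less in Tu-primed libraries, while Xdh is highest in Tu-primed and lowest in Spl-primed libraries.

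Facts of the libraries that bear on these genes were as follows. Reads assigned to transcripts numbered 24566183 to 31637755 per library, with a median of 27277534. Of 22 granulocyte markers, 6 passed the filter, and Mpo, Elane and Camp, with Adgre1, Ccr2 and C1qa of the 12 monocyte and macrophage markers, had 0 counts in all 12 libraries. Other untested granulocyte markers had a few counts per library, with Ptprc at 1 to 10, Itgam at 0 to 6 and S100a9 at 0 to 1. Lyz2 had 2 to 6 counts in Tu-primed, 1 to 3 in Spl-primed and 0 to 2 in parental libraries. The summed level of the granulocyte list was 243 to 264 CPM in Tu-primed, 251 to 260 in Spl-primed and 190 to 217 in parental libraries, most of it from Itgb2, an integrin chain also present in parental libraries. Of the 6, Ltf, S100a8 and Itgb2 were called higher and Clec4d lower in Tu-primed against parental cells, Itgb2 was called higher in Spl-primed cells, and Ltf and S100a8 were called higher in Tu-primed than in Spl-primed cells. Ltf, lactoferrin, which mammary epithelium also makes, was at 3.12 to 5.18 CPM in Tu-primed, 1.66 to 2.23 in Spl-primed and 1.57 to 2.02 in parental libraries, and S100a8 at 1.63 to 3.84, 1.29 to 1.96 and 1.72 to 2.09 CPM. The monocyte and macrophage list summed to 7.1 to 8.82, 5.38 to 6.65 and 5.04 to 5.76 CPM. Of its 2 tested genes, Mrc1 was called higher in both primed groups against parental cells, and Ly6c2, which was too low to test, had 8 to 16 counts in Tu-primed, 2 to 6 in Spl-primed and 1 to 2 in parental libraries. The mammary epithelial list, with the keratins Krt8 and Krt18 at the top and Krt5 at 0, summed to 1927 to 2362 CPM in Tu-primed, 2417 to 2609 in Spl-primed and 2692 to 4011 in parental libraries, and the part of these shifts in the results on the 10 genes was not tested.

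TGACNNNGC is a core given for antioxidant response elements, and other forms of the core were not searched for. TGACNNNGC was looked for on both strands of promoter windows of RefSeq on GRCm38.p6. Each window runs from 250 bases before to 50 bases after a start listed for a gene, which need not be the gene's first base. Windows were given for 6 of the 10 genes, namely Nfe2l2, Keap1, Nqo1, Gclm, Txnrd1 and Srxn1. The core was found in windows of 4 of these 6 genes, against 14.0% of 27025 genes with a window. Each match is shown because it places the core in a window of a gene whose level is given below. The sequences run 5′ to 3′ along the gene's strand, with the match in capitals.
Nfe2l2: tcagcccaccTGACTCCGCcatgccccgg
Gclm: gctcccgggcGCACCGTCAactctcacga
Txnrd1: ctggatttttGCTTTGTCAttctgacacg
Srxn1: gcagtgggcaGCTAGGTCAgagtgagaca

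Each stretch of 29 bases holds the match with 10 bases on either side. The stretch of Nfe2l2 lies at chr2:75704885-75704913 on the minus strand, with the match at positions -240 to -232. That of Gclm lies at chr3:122245413-122245441 on the plus strand, with the match at -134 to -126. Positions are counted from the listed start that each window is set on. The stretch of Txnrd1, in 1 of its 3 windows, lies at chr10:82859104-82859132 with the match at -92 to -84, and that of Srxn1 at chr2:152105542-152105570 with the match at 29 to 37. This Txnrd1 window (chr10:82858956-82859255) is set on a start inside the gene, whose first base is chr10:82833951. The window at that first base held no match. The last 3 matches are on the reverse strand relative to the gene. Levels of these 4 genes went different ways, since Txnrd1 rose and Srxn1 fell in Tu-primed cells and Nfe2l2 and Gclm passed the test in none of the 3 comparisons. A match in these letters describes the window and does not show a bound site, and nothing is drawn from windows without a match.

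Of the regulators, Keap1 fell in both primed groups and Nfe2l2 was not called in any comparison. Nfe2l2 (ENSMUSG00000015839, chr2:75675513-75704641 on GRCm38, minus strand) was at 226, 216, 221 and 209 CPM in Tu-primed libraries, 207, 189, 197 and 200 in Spl-primed libraries and 213, 214, 196 and 186 in parental libraries. The Tu-primed libraries all lay above the Spl-primed ones, and both overlapped with the parental libraries. The log2 fold change was 0.14 ± 0.06 (SE) between the primed groups (edgeR adjusted p = 0.161), 0.11 ± 0.06 against parental cells in Tu-primed (edgeR adjusted p = 0.107) and -0.03 ± 0.06 in Spl-primed cells (edgeR adjusted p = 0.717). With protein-coding transcripts only, Nfe2l2 passed the threshold in Tu-primed against parental cells (edgeR adjusted p = 0.0399).

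Keap1 (ENSMUSG00000003308, chr9:21229730-21239361, minus strand) was at 72.5, 66.6, 70.1 and 71.8 CPM in Tu-primed, 74.8, 73.2, 77.7 and 70.9 in Spl-primed and 84.3, 79.1, 89.6 and 98.0 in parental libraries. Every primed library lay below every parental library, and the primed groups overlapped. Keap1 fell by 0.32 on the log2 scale in Tu-primed cells (SE 0.06, edgeR adjusted p = 0.000644) and by 0.24 in Spl-primed cells (SE 0.06, edgeR adjusted p = 0.00624). The difference between the primed groups was -0.08 ± 0.06 (edgeR adjusted p = 0.504).

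The genes of glutathione synthesis and recycling moved little, and their 2 ligase subunits did not move together. Gclc (ENSMUSG00000032350, chr9:77754535-77794485, plus strand), the catalytic subunit of glutamate-cysteine ligase, which carries out the rate-limiting step of glutathione synthesis, was at 64.2, 61.4, 64.4 and 61.6 CPM in Tu-primed, 73.6, 69.6, 75.0 and 67.8 in Spl-primed and 55.6, 63.2, 54.9 and 49.6 in parental libraries. The Spl-primed libraries were the highest and overlapped with neither other group, whereas parental replicate 2 lay within the Tu-primed range. The log2 fold change was 0.36 ± 0.06 in Spl-primed cells (edgeR adjusted p = 0.000565) and 0.17 ± 0.06 in Tu-primed cells against parental cells (edgeR adjusted p = 0.0338). The primed groups differed by -0.18 ± 0.06, without passing the threshold (edgeR adjusted p = 0.101), which they did without parental replicate 2 (edgeR adjusted p = 0.0455). The rise in Tu-primed cells lost its call without any of Tu-primed replicates 1, 2 and 3 or parental replicates 1, 3 and 4 (edgeR adjusted p up to 0.118) and with transcript length offsets (0.0707), and that in Spl-primed cells was called in every fit tried.

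Gclm (ENSMUSG00000028124, chr3:122245557-122270732, plus strand), the modifier subunit of the same ligase, was at 78.9, 77.7, 77.4 and 73.7 CPM in Tu-primed, 73.3, 73.4, 83.7 and 70.4 in Spl-primed and 92.2, 88.0, 81.8 and 71.4 in parental libraries. All 3 groups overlapped, and the parental libraries alone spanned nearly the whole range. The log2 fold change was -0.12 ± 0.08 in Tu-primed (edgeR adjusted p = 0.202) and -0.15 ± 0.08 in Spl-primed against parental cells (edgeR adjusted p = 0.119), and 0.03 ± 0.08 between the primed groups (edgeR adjusted p = 0.845). Without parental replicate 4, the lowest of its group, Gclm was called lower in both primed groups (edgeR adjusted p = 0.0301 and 0.018), and without Spl-primed replicate 3, the highest of its group, in Spl-primed cells (edgeR adjusted p = 0.0149).

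Gsr (ENSMUSG00000031584, chr8:33652523-33698163, plus strand), glutathione reductase, which restores reduced glutathione with NADPH, was at 211, 197, 210 and 201 CPM in Tu-primed, 202, 198, 197 and 196 in Spl-primed and 183, 201, 159 and 132 in parental libraries. The primed libraries were close together, and parental replicate 2 reached their level. Gsr rose by a log2 fold change of 0.28 ± 0.10 in Tu-primed cells (edgeR adjusted p = 0.0208), and the value in Spl-primed cells was 0.23 ± 0.10 (edgeR adjusted p = 0.0568). The difference between the primed groups was 0.05 ± 0.09 (edgeR adjusted p = 0.816). The call in Tu-primed cells was lost without Tu-primed replicate 1 (0.0508) or parental replicate 3 (edgeR adjusted p = 0.0591), and Spl-primed cells passed the threshold without parental replicate 2 (edgeR adjusted p = 0.00615), without parental replicate 1 and in 4 other fits.

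Of the thioredoxin genes, Txnrd1 was slightly higher in primed cells and Srxn1 was lower. Txnrd1 (ENSMUSG00000020250, chr10:82833951-82897712, plus strand), cytosolic thioredoxin reductase, was at 423, 404, 404 and 394 CPM in Tu-primed, 420, 395, 413 and 378 in Spl-primed and 371, 399, 339 and 291 in parental libraries. Parental replicate 2 overlapped with both primed groups and parental replicate 4 was the lowest of all, as it was for Gsr, Gclc and Nfe2l2. The log2 fold change was 0.22 ± 0.08 in Tu-primed (edgeR adjusted p = 0.0298) and 0.20 ± 0.08 in Spl-primed against parental cells (edgeR adjusted p = 0.0511), values on either side of the threshold, and 0.02 ± 0.08 between the primed groups (edgeR adjusted p = 0.929). The call in Tu-primed cells was lost with transcript length offsets (0.0674) and without any of 5 libraries, namely Tu-primed replicates 1, 2 and 3 and parental replicates 3 and 4 (edgeR adjusted p up to 0.0782), and Spl-primed cells passed without parental replicate 1 or 2 and in 4 other fits.

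Srxn1 (ENSMUSG00000032802, chr2:152105516-152111376, plus strand), sulfiredoxin, which repairs over-oxidized peroxiredoxins, was at 78.0, 76.4, 71.4 and 81.3 CPM in Tu-primed, 90.2, 89.1, 95.6 and 87.2 in Spl-primed and 106, 104, 105 and 93.7 in parental libraries. The Tu-primed libraries were the lowest and overlapped with neither other group, and parental replicate 4 fell within the Spl-primed range. Srxn1 fell by 0.41 on the log2 scale in Tu-primed cells (SE 0.06, edgeR adjusted p = 4e-05) and by 0.17 in Spl-primed cells (SE 0.06, edgeR adjusted p = 0.0226), and was lower by a log2 fold change of -0.24 ± 0.06 in Tu-primed than in Spl-primed cells (edgeR adjusted p = 0.02). The fall in Tu-primed cells was called in every fit. The difference between the primed groups was lost without any of Tu-primed replicates 1, 2 and 3 (edgeR adjusted p up to 0.0809), with the replicate block (0.055) and with transcript length offsets (0.141), and the fall in Spl-primed cells was lost without Spl-primed replicate 2 or 4, without parental replicate 1 or 3 (edgeR adjusted p up to 0.0629) and with protein-coding transcripts only (0.0844).

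Nqo1 showed the largest fall among the 10 genes, in graded steps from parental over Spl-primed to Tu-primed cells. Nqo1 (ENSMUSG00000003849, chr8:107388225-107403206, minus strand), a quinone reductase and a widely used readout of NRF2 activity, was at 24.5, 24.3, 20.8 and 24.8 CPM in Tu-primed, 35.4, 32.0, 37.5 and 29.6 in Spl-primed and 46.8, 46.6, 45.8 and 47.8 in parental libraries. No library of any group reached the range of another, and the mean in Tu-primed cells (23.6 ± 1.86 CPM, SD, n = 4) was 0.505 of that in parental cells (46.8 ± 0.814 CPM, SD, n = 4). Nqo1 fell by 0.99 on the log2 scale in Tu-primed cells (SE 0.08, edgeR adjusted p = 3.38e-07) and by 0.48 in Spl-primed cells (SE 0.07, edgeR adjusted p = 0.000191), and differed by -0.51 ± 0.08 between the primed groups (edgeR adjusted p = 0.000753). All 3 calls held in each of the 21 alternative fits. The summed epithelial markers had the same order of groups. Of 9 tested markers, 5 were called lower and 1 (Cldn4) higher in Tu-primed, and 4 lower and 2 (Cldn4 and Epcam) higher in Spl-primed against parental cells, where 28.0% and 22.5% of all genes were called lower. None of the 9 passed between the primed groups (edgeR adjusted p of 0.0742 or more), and their part in the result on Nqo1 was not tested.

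Hmox1 (ENSMUSG00000005413, chr8:75093621-75100589, plus strand), heme oxygenase 1, which opens the heme ring to biliverdin, iron and carbon monoxide, was at 17.8, 16.4, 15.7 and 16.0 CPM in Tu-primed, 13.6, 13.0, 14.6 and 13.5 in Spl-primed and 17.3, 17.3, 15.4 and 15.1 in parental libraries. The Spl-primed libraries all lay below both other groups, and Tu-primed and parental libraries overlapped. Hmox1 fell by 0.26 on the log2 scale in Spl-primed against parental cells (SE 0.07, edgeR adjusted p = 0.0083), the difference between the primed groups was 0.27 ± 0.07 (edgeR adjusted p = 0.0295), and that between Tu-primed and parental cells was 0.01 ± 0.07 (edgeR adjusted p = 0.879). The fall in Spl-primed cells was called in every fit, whereas the difference between the primed groups was lost without any of 6 libraries, namely Tu-primed replicates 1, 2 and 3 and Spl-primed replicates 1, 2 and 4 (edgeR adjusted p up to 0.108), with the replicate block (0.0573) and with transcript length offsets (0.119).

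**Figure D2:**
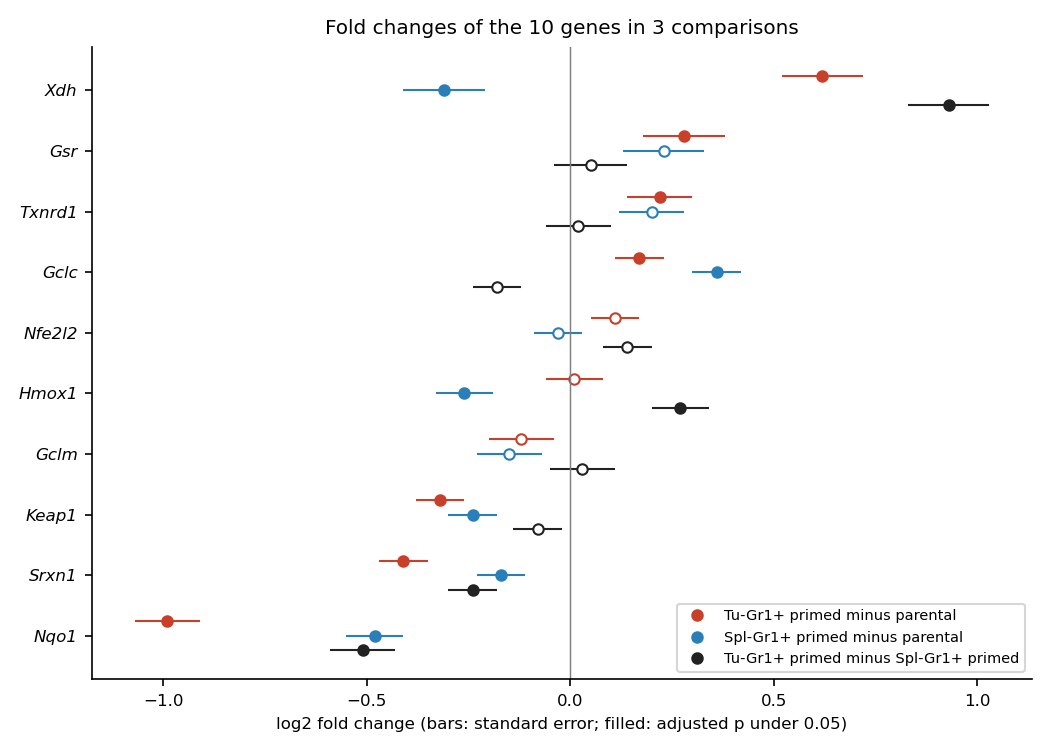
Log2 fold changes of the 10 genes with standard errors in 3 comparisons, from 12 libraries, where filled points passed an adjusted p of 0.05 in the edgeR fit. Nqo1 lies at -0.99 in Tu-primed and -0.48 in Spl-primed against parental cells, and Xdh is the gene with filled points on both sides of 0 against parental cells (0.62 and -0.31).

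Xdh (ENSMUSG00000024066, chr17:73883895-73950196, minus strand) rose in Tu-primed cells and fell in Spl-primed cells. It was at 181, 185, 193 and 138 CPM in Tu-primed, 92.9, 93.7, 78.4 and 100 in Spl-primed and 109, 112, 114 and 118 in parental libraries. No group overlapped with another, and Tu-primed replicate 4 was the lowest of its group by a wide step. Mean levels were 174 ± 24.8, 91.3 ± 9.23 and 113 ± 3.73 CPM (SD, n = 4). Xdh was 1.54-fold higher in Tu-primed than in parental cells (log2 0.62 ± 0.10, edgeR adjusted p = 9.49e-05), at 0.806 of the parental level in Spl-primed cells (log2 -0.31 ± 0.10, edgeR adjusted p = 0.0161) and 1.91-fold higher in Tu-primed than in Spl-primed cells (log2 0.93 ± 0.10, edgeR adjusted p = 4.57e-05). Both rises held in each of the 21 alternative fits, with log2 values from 0.54 to 0.72 against parental and from 0.88 to 1.03 against Spl-primed cells, and the fall in Spl-primed cells lost its call with transcript length offsets (edgeR adjusted p = 0.0889). Xdh stands on the study's list of genes raised in Tu-primed over Spl-primed cells and in SCA1-positive cells, which was drawn in part from these libraries, so the call between the primed groups is not independent evidence of its direction. Of the 6 tested granulocyte markers, Ltf and S100a8 were called higher in Tu-primed cells too (log2 1.21 and 0.62 against parental cells, edgeR adjusted p = 5.8e-05 and 0.0345). Clec4d was called lower there (log2 -0.83, edgeR adjusted p = 0.047). Itgb2 rose alike in Tu-primed and Spl-primed cells (log2 0.31 and 0.35), and Cxcr2 and Cd14 were called in no comparison. The part of these markers in the result on Xdh was not tested.

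The reads of Xdh were not divided among its transcripts in the same way in the 3 groups. Xdh-201, the coding transcript with 36 exons and 4600 bases, held most reads, with 153, 151, 158 and 116 CPM in Tu-primed, 72.9, 74.6, 58.2 and 79.1 in Spl-primed and 98.1, 100, 106 and 107 in parental libraries. Xdh-206 (chr17:73883908-73950145, 7775 bases) is annotated as a retained-intron transcript, in which an exon of Xdh-201 runs on for 3225 of the 4591 bases of intron 34, at chr17:73887886-73891110. Xdh-206 was at 25.7, 31.6, 32.3 and 19.7 CPM in Tu-primed, 19.2, 18.6, 16.3 and 19.8 in Spl-primed and 9.86, 12.2, 8.05 and 8.44 in parental libraries. Both primed groups thus lay above all parental libraries for Xdh-206, whereas for Xdh-201 the Spl-primed libraries lay below them. Since the other exons lie in both transcripts, the split between them is an estimate that rests largely on reads in the added stretch.

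The share of Xdh reads on transcripts that are not protein-coding was 15.6%, 18.5%, 18.1% and 16.0% in Tu-primed, 21.5%, 20.5%, 21.1% and 21.1% in Spl-primed and 10.0%, 11.0%, 7.15% and 9.47% in parental libraries. No group overlapped with another, and the Spl-primed libraries were highest. Means were 17.0% ± 1.48, 21.1% ± 0.445 and 9.41% ± 1.63 (SD, n = 4), and each of the 3 differences had the smallest p that 4 against 4 libraries allow (two-sided exact permutation p = 0.0286). None passed 0.05 after Benjamini-Hochberg adjustment over the 27 such tests on the 10 genes (exact permutation test, adjusted p = 0.11). With 4 against 4 libraries, none could pass this adjustment unless most of the 27 tests reached the smallest p, so nothing is drawn from the adjusted values. Over all protein-coding genes, the share was 8.14% ± 0.102 in Tu-primed, 8.19% ± 0.386 in Spl-primed and 6.35% ± 0.173 in parental libraries, so the primed groups were higher there too. With protein-coding transcripts only, the log2 fold change of Xdh was 0.54 in Tu-primed and -0.47 in Spl-primed against parental cells.

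**Figure D3:**
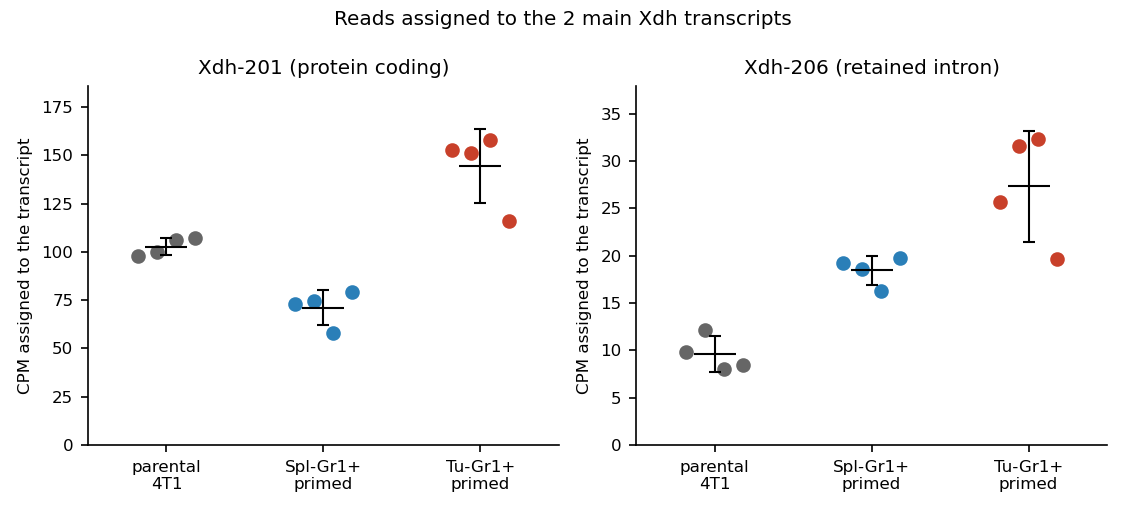
CPM assigned to the coding transcript Xdh-201 and to the retained-intron transcript Xdh-206 in each of the 12 libraries, with the mean and SD of 4 libraries as bars. Spl-primed libraries lie below parental ones for Xdh-201 (58.2 to 79.1 against 98.1 to 107) and above them for Xdh-206 (16.3 to 19.8 against 8.05 to 12.2).

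Of the other 9 genes, Gclm had the largest share on transcripts that are not protein-coding in each group, above that of Xdh in parental libraries, at 15.0% ± 2.3 in Tu-primed, 14.1% ± 0.412 in Spl-primed and 15.3% ± 0.622 in parental libraries (SD, n = 4). Its Spl-primed libraries all lay below the parental ones. For Nfe2l2 the share was 0.706% ± 0.24 in Tu-primed and 0.267% ± 0.0518 in Spl-primed libraries (SD, n = 4), which did not overlap. For Txnrd1 the share was small but did not overlap with the parental libraries, at 0.893% ± 0.284 in Tu-primed and 0.557% ± 0.191 in Spl-primed against 0.156% ± 0.0807 in parental libraries. Each of these 4 differences had a two-sided exact permutation p of 0.0286 (adjusted p = 0.11), with the same limit of the adjustment. A minor coding transcript, Txnrd1-205, was at 19.4 ± 2.43 CPM in Tu-primed and 8.66 ± 2.77 in parental libraries (SD, n = 4), which did not overlap, whereas the main one, Txnrd1-201, was at 347 ± 14.4 and 300 ± 43.6 CPM and overlapped. Nqo1 has a single transcript in the files, so its level does not depend on such a division.

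Levels can be compared between genes only per length, for which the authors' TPM values, which divide reads by transcript length, were used within each group. TPM moved the median of all tested genes by 0.49 on the log2 scale in Tu-primed and by 0.42 in Spl-primed against parental cells, so it was not used across groups. Unlike in CPM, mean TPM of Keap1 was higher in Tu-primed (35.3) and Spl-primed (35.1) than in parental libraries (31.4). For Srxn1 the means were 43.5 and 46.8 against 40.5. In Spl-primed libraries, Xdh (29.1 against 26.0) and Hmox1 (13.7 against 12.4) were higher too, and Nqo1 (33.8 against 35.8) overlapped with parental libraries. The cause of the shift was not tested. Txnrd1 had the highest level of the 10 genes in each group, with means of 189, 179 and 121 TPM in Tu-primed, Spl-primed and parental cells, and Hmox1 the lowest, with 17.1, 13.7 and 12.4 TPM. In parental libraries Txnrd1, Gclm, Nfe2l2 and Gsr formed the upper part with neighbours that overlapped, from 121 to 87.5 TPM, and Srxn1 followed at 40.5 TPM without overlap with Gsr. The order differed between groups in several genes. Nqo1 came in place 9 in Tu-primed, 7 in Spl-primed and 6 in parental cells, Gclm in place 4, 4 and 2, and Gsr in place 2, 2 and 4. Xdh came in the fifth place in Tu-primed cells at 56.2 TPM, overlapping with Srxn1 at 43.5, but in the ninth place in Spl-primed cells at 29.1 TPM, overlapping with Gclc at 29.5. In parental cells Xdh came in the eighth place at 26.0 TPM, without overlap with Keap1 above at 31.4 or Gclc below at 17.7.

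Other genes of the same pathways were taken from 9 lists with 146 genes, of which 120 were tested. In Tu-primed against parental cells, 23 of the 120 were called higher and 56 lower, with a median log2 fold change of -0.16. In Spl-primed against parental cells, 17 were called higher and 53 lower, also with a median of -0.16. In Tu-primed against Spl-primed cells, 8 were called higher and 7 lower, with a median of -0.03. The shares among all tested genes are those given above for the 10 genes.

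**Figure D4:**
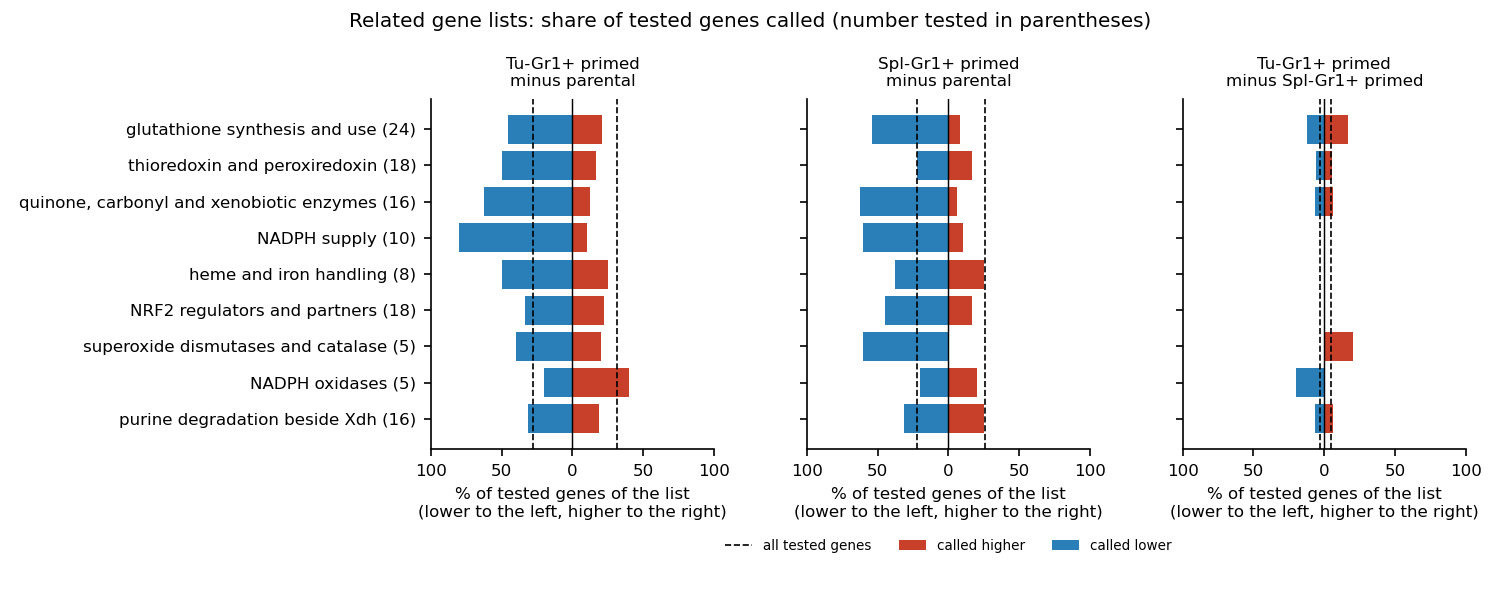
Percent of the tested genes of each list called lower (to the left) and higher (to the right) in 3 comparisons, with dashed lines at the percent of all tested genes called. In the list of NADPH supply, 8 of 10 genes were called lower in Tu-primed and 6 of 10 in Spl-primed against parental cells, and no gene was called between the primed groups.

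In the list of glutathione synthesis and use, 11 of 24 tested genes were called lower and 5 higher in Tu-primed, and 13 lower and 2 higher in Spl-primed against parental cells. Gsta1, a glutathione transferase, fell most, by 2.04 on the log2 scale in Tu-primed cells (SE 0.23, edgeR adjusted p = 8.44e-06) and by 1.06 in Spl-primed cells (SE 0.22, edgeR adjusted p = 0.00133), and as Gsta genes are near-identical its counts are uncertain. Slc7a11, the cystine importer that supplies cysteine for glutathione, showed the largest rise of the list between the primed groups, at 267 ± 50.1 CPM in Tu-primed and 156 ± 26.6 in Spl-primed cells (SD, n = 4, log2 0.78 ± 0.15, edgeR adjusted p = 0.00437). The largest rises against parental cells were those of Gstt1 in Tu-primed cells (log2 0.74 ± 0.27, edgeR adjusted p = 0.0305, from 14 to 38 counts per library) and of Chac2, a glutathione-degrading enzyme, in Spl-primed cells (log2 0.52 ± 0.09, edgeR adjusted p = 0.000354). The call of Gstt1 was lost without Tu-primed replicate 2 or 3 or parental replicate 1 or 2 (edgeR adjusted p up to 0.0995), without a filter (0.0596) and with transcript length offsets (0.0514). Tu-primed against Spl-primed cells gave 4 genes of this list called higher and 3 lower, Gsta1 among them (log2 -0.98 ± 0.24, edgeR adjusted p = 0.0227, lost without Tu-primed replicate 1 or 3 or Spl-primed replicate 1 or 3, up to 0.0891, with limma-voom, 0.0519, and with transcript length offsets, 0.0507).

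In the thioredoxin and peroxiredoxin list, 9 of 18 genes were called lower and 3 higher in Tu-primed, and 4 lower and 3 higher in Spl-primed against parental cells. Txnip, which binds thioredoxin and inhibits it, rose in graded steps, from 38.6 ± 6.13 CPM in parental to 78.1 ± 7.84 in Spl-primed and 121 ± 1.75 in Tu-primed cells (SD, n = 4). The log2 fold change was 1.65 ± 0.10 in Tu-primed (edgeR adjusted p = 5.7e-08) and 1.02 ± 0.10 in Spl-primed against parental cells (edgeR adjusted p = 3.61e-06), and 0.63 ± 0.09 between the primed groups (edgeR adjusted p = 0.000771). Txn2, mitochondrial thioredoxin, fell by 0.74 (SE 0.10, edgeR adjusted p = 3.28e-05) and by 0.49 (SE 0.10, edgeR adjusted p = 0.00124) on the log2 scale, and Txnrd2, its reductase, was the single gene of the list called lower in Tu-primed than in Spl-primed cells (log2 -0.34 ± 0.08, edgeR adjusted p = 0.0229). With transcript length offsets neither the call of Txnip (edgeR adjusted p = 0.0549) nor that of Txnrd2 (0.842) between the primed groups held, and that of Txnrd2 was also lost without Tu-primed replicate 2 or 3 or Spl-primed replicate 2 or 3 (up to 0.0759) and with the replicate block (0.0604).

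Among quinone, carbonyl and xenobiotic enzymes, which is the group that Nqo1 belongs to by function, 10 of 16 tested genes were called lower in each primed group against parental cells, with 2 called higher in Tu-primed and 1 in Spl-primed cells. Aldh3a1, an aldehyde dehydrogenase, had the same order of groups as Nqo1, at 152 ± 15.4 CPM in parental, 95.0 ± 7.97 in Spl-primed and 74.9 ± 5.18 in Tu-primed cells (SD, n = 4), and was called in each comparison (log2 -1.02, -0.68 and -0.34, edgeR adjusted p = 4.9e-07, 2.73e-05 and 0.0188). Ugdh, which makes UDP-glucuronate for conjugation, went the other way, with log2 values of 0.52, 0.30 and 0.22 (edgeR adjusted p = 1.6e-06, 0.000222 and 0.0125). Between the primed groups, the call of Aldh3a1 was lost without Tu-primed replicate 2 or 3 or Spl-primed replicate 1 or 3 (edgeR adjusted p up to 0.0783), that of Ugdh without Tu-primed replicate 2 (0.0556), and both with transcript length offsets (0.0765 and 0.148).

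Of the genes listed under NADPH supply, 8 of 10 were called lower in Tu-primed and 6 of 10 in Spl-primed cells, with 1 called higher in each. Pgd of the pentose phosphate pathway fell by 0.71 (SE 0.07, edgeR adjusted p = 1.88e-06) and by 0.56 (SE 0.07, edgeR adjusted p = 2.88e-05) on the log2 scale, and Idh1, cytosolic isocitrate dehydrogenase, was the gene that rose (log2 0.37 and 0.24, edgeR adjusted p = 0.00023 and 0.00675). Of the 10 genes, edgeR and limma-voom called 0 between the primed groups and DESeq2 called 1, with 5 under 0.05 in edgeR before adjustment.

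In the heme and iron list, 4 of 8 genes were called lower and 2 higher in Tu-primed, and 3 lower and 2 higher in Spl-primed against parental cells. The same shares over all tested genes were 28.0% and 31.2%, and 22.5% and 25.7%. The ferritin chains, which store iron and have many near-identical pseudogenes, showed the largest falls, with Ftl1 lower by a log2 fold change of -0.92 ± 0.11 in Tu-primed (edgeR adjusted p = 1.24e-05) and Fth1 by -0.73 ± 0.11 in Spl-primed cells (edgeR adjusted p = 0.000183). Slc40a1, the iron exporter, was called higher in both (log2 1.49 ± 0.42 and 1.31 ± 0.42, edgeR adjusted p = 0.00714 and 0.0192), from 5 to 46 counts per library, and the call in Spl-primed cells was lost without Spl-primed replicate 2 or 4 or parental replicate 1 or 4 (edgeR adjusted p up to 0.0711) and with transcript length offsets (0.0581).

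In the list of NRF2 regulators and partners, 6 of 18 genes were called lower and 4 higher in Tu-primed, and 8 lower and 3 higher in Spl-primed against parental cells. Of all tested genes, 28.0% were called lower and 31.2% higher in Tu-primed, and 22.5% and 25.7% in Spl-primed cells. Sqstm1, the autophagy receptor that binds KEAP1, fell by 0.57 (SE 0.07, edgeR adjusted p = 1.02e-05) and by 0.45 (SE 0.07, edgeR adjusted p = 0.000142) on the log2 scale. Palb2, a DNA repair protein that also binds KEAP1, rose by log2 0.89 ± 0.12 and 0.84 ± 0.12 (edgeR adjusted p = 3.23e-05 and 0.000109). As for Keap1 itself, edgeR, DESeq2 and limma-voom called 0 genes of this list between the primed groups, with 1 under 0.05 in edgeR before adjustment.

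Superoxide dismutases and catalase gave 2 of 5 genes lower and 1 higher in Tu-primed, and 3 lower and 0 higher in Spl-primed against parental cells. The shares of all tested genes were 28.0% lower and 31.2% higher in Tu-primed, and 22.5% and 25.7% in Spl-primed cells. Sod1, the cytosolic enzyme, fell in both (log2 -0.54 and -0.34, edgeR adjusted p = 4.41e-05 and 0.00233). Sod2, the mitochondrial enzyme, had the same order of groups as Xdh, at 106 ± 8.15 CPM in Tu-primed, 93.3 ± 3.41 in parental and 74.8 ± 5.68 in Spl-primed cells (SD, n = 4), with a log2 difference of 0.50 ± 0.07 between the primed groups (edgeR adjusted p = 0.000304). Its rise over parental cells (log2 0.18 ± 0.07, edgeR adjusted p = 0.0301) was lost without Tu-primed replicate 1, 2 or 3 or parental replicate 1 or 2 (edgeR adjusted p up to 0.101) and with transcript length offsets (0.0793), and its fall in Spl-primed cells was called in every fit (log2 -0.32 ± 0.07, edgeR adjusted p = 0.00154).

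The NADPH oxidases, a further source of superoxide, were mostly too low to test, with 5 of 16 genes passing the filter. Of these, 2 were called higher and 1 lower in Tu-primed, and 1 higher and 1 lower in Spl-primed against parental cells. Nox4, a catalytic subunit (21 to 76 counts per library), was called higher in Tu-primed cells (log2 0.71 ± 0.22, edgeR adjusted p = 0.0124). In Spl-primed cells its value was 0.48 ± 0.22 (edgeR adjusted p = 0.0866). Cyba, the membrane subunit, fell in both primed groups (log2 -0.40 ± 0.14 and -0.45 ± 0.14, edgeR adjusted p = 0.0247 and 0.016), and these calls were lost without Tu-primed replicate 1 or 3 or parental replicate 3 or 4 (edgeR adjusted p up to 0.0939) and without Spl-primed replicate 1 or parental replicate 4 (up to 0.0561). The organizer Noxo1 (8 to 33 counts per library) was called higher in Tu-primed cells (log2 1.08 ± 0.29, edgeR adjusted p = 0.00513), and the activator Noxa1 (4 to 18 counts) higher in Spl-primed cells (log2 1.13 ± 0.30, edgeR adjusted p = 0.00636) and lower in Tu-primed than in Spl-primed cells (log2 -1.01 ± 0.29, edgeR adjusted p = 0.0489). The last call was lost without any single library other than Tu-primed replicate 1 (edgeR adjusted p up to 0.165) and in 7 of 8 other fits, DESeq2 (adjusted p = 0.107) and the replicate block (0.0965) among them, and that of Noxo1 with transcript length offsets (0.517).

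In the list of purine degradation beside Xdh, 5 of 16 tested genes were called lower in each primed group, with 3 called higher in Tu-primed and 4 in Spl-primed cells. The list also holds Hprt and Aprt of purine salvage and genes of the molybdenum cofactor. Hprt and Aprt were among the genes called lower in both primed groups, and the cofactor gene Mocos among those in Spl-primed cells. All tested genes gave 28.0% lower and 31.2% higher in Tu-primed, and 22.5% and 25.7% in Spl-primed cells. Nt5e, the ectoenzyme CD73 that makes adenosine from AMP outside the cell, was at 274 ± 13.4 CPM in Tu-primed, 197 ± 13.1 in Spl-primed and 131 ± 14.3 in parental cells (SD, n = 4), with a log2 fold change of 1.06 ± 0.08 in Tu-primed against parental (edgeR adjusted p = 2.21e-07) and 0.48 ± 0.08 against Spl-primed cells (edgeR adjusted p = 0.00119). Ada, which converts adenosine to inosine, fell by 0.77 (SE 0.15, edgeR adjusted p = 0.000526) and by 0.53 (SE 0.15, edgeR adjusted p = 0.00843) on the log2 scale. Aox1, aldehyde oxidase, a molybdenum enzyme related to xanthine oxidase, rose in both primed groups to a like level, at 30.3 ± 2.09 and 28.4 ± 3.94 against 16.8 ± 1.16 CPM in parental cells (SD, n = 4, log2 0.85 and 0.76, edgeR adjusted p = 6.05e-06 and 3.21e-05). Ampd2, AMP deaminase, was the single gene of the list called lower in Tu-primed than in Spl-primed cells (log2 -0.22 ± 0.05, edgeR adjusted p = 0.0106), a call lost with transcript length offsets (0.415).

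Across the 12 libraries, the genes most like a given member were listed by Pearson's r of log2 CPM, as a description, since the points share groups and library depth. Among the genes closest to Xdh were Gbp2 and Mdga1, each with r = 0.972, and Gbp2 was at 26.8, 9.07 and 11.1 CPM in Tu-primed, Spl-primed and parental cells. Closest to Nqo1 were Nop2 and Perp (r = 0.989 each) and Slc25a5 (r = 0.986), and among the 10 genes Srxn1 (r = 0.956) and Keap1 (r = 0.849). Srxn1 was closest to Fen1 (r = 0.977), Arf6 (r = 0.974) and Msantd3 (r = 0.972). Hmox1 was closest to Ctsb (r = 0.909), Alg2 (r = 0.891) and Slc39a1 (r = 0.885), and its r with Nqo1 was -0.00534. Nfe2l2 had r = 0.683 with Xdh, r = 0.681 with Hmox1 and r = -0.535 with Nqo1.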

How the data were processed

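RNA-Seq libraries (TruSeq Stranded RNA, total RNA) came from 3 groups with 4 libraries each. The authors deposited, per library, estimated counts of reads per Ensembl transcript, not normalized, together with TPM, scaled for transcript length and depth, and effective lengths. Per the labels, the submitters' processing notes name FastQC, Trimmomatic 0.39, Salmon 1.4.0 and GRCm38 (mm10). The annotation release is not given in the sources used here. The authors' table of normalized counts was not used.

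Estimated counts were summed per gene with GENCODE M21 and rounded. Of 117081 transcripts, 116021 were in that annotation, and the others held 0.326% to 0.419% of reads. Where near-identical genes share reads, counts depend on the estimation. Library totals were 24566183 to 31637755, and 3 counts are the upper limit for a gene at 0. No pair of libraries in a group differed by as little as sampling noise (chi-square over degrees of freedom at least 3.5). CPM used TMM factors (0.88 to 1.05). edgeR 4.0.16 in R 4.3.3 was run with filterByExpr and its quasi-likelihood test on all 12 libraries, without a replicate term, and Benjamini-Hochberg adjustment. Standard errors are those of log2 fold changes. Shares of reads were compared by exact permutation tests. The tests were tried on simulated data. Alternatives were RLE factors, DESeq2 1.42.0, limma-voom (limma 3.58.1), transcript length offsets, protein-coding transcripts only, a fit of the 8 libraries compared, a replicate term, a minimum of 10 counts per library, the whole table unfiltered and the omission of each library in turn. Python 3.11.15 (pandas 2.3.3, numpy 2.4.6, statsmodels 0.14.6, matplotlib 3.10.9) served for tables and plots.

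The 10 genes, all gene lists and the naming rule were chosen with earlier results of these data known. Beside the 10 genes, the rule named the gene with the largest called rise and fall of each list in each comparison, and the 3 genes most like Xdh, Nqo1, Hmox1 and Srxn1, of which 1 is not reported here. Markers, Nox4, Hprt, Aprt, Mocos, Sod2 in Spl-primed cells and Aox1 in Tu-primed cells were named after their values were seen.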

Additional observations from a re-analysis of the deposited data

Results flagged for a closer look

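For 4 of the 10 genes the effect of Tu-Gr1+CD11b+ cells differed from that of Spl-Gr1+CD11b+ cells, both against the same parental libraries in edgeR's test, with p-values adjusted by Benjamini-Hochberg. The difference of the log2 fold changes, Tu-primed minus Spl-primed, was 0.93 for Xdh (edgeR adjusted p = 4.57e-05), 0.27 for Hmox1 (edgeR adjusted p = 0.0295), -0.24 for Srxn1 (edgeR adjusted p = 0.02) and -0.51 for Nqo1 (edgeR adjusted p = 0.000753). As the parental libraries cancel in this difference, it is the comparison of the primed groups given above. Over all 12555 tested genes, that comparison gave shares of 4.66% for rises and 2.97% for falls under the same threshold. The 10 genes had been picked with earlier results of these data known, so their count is no test of them as a set. Xdh moved in opposite directions from parental cells, Nqo1 and Srxn1 fell in both groups and further in Tu-primed cells, and for Hmox1 only the fall in Spl-primed cells was called. The differences of Xdh and Nqo1 were called in each of the 21 alternative fits, those of Srxn1 and Hmox1 were not.

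The Nqo1 level of Tu-primed replicate 3, 20.8 CPM, lay apart from the other 3 libraries of its group (24.3 to 24.8 CPM), with a gap of 0.864 of the group's range, above Dixon's critical value for 4 samples. This was 1 of 30 groups looked at, and chance alone flags about 1 in 20.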

How the results depend on the processing

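Values are given per alternative, and the cause of a change was not tested unless stated. The number of the 10 genes called higher in Tu-primed against parental cells, 4, was 2 with transcript length offsets and between 1 and 4 when 1 library was left out. In Spl-primed against parental cells, 1 became 3 with limma-voom, with at least 10 counts in every library, with the replicate block and with protein-coding transcripts only, and lay between 1 and 3 when 1 library was left out, as Txnrd1 and Gsr crossed the threshold. Between the primed groups, 2 called higher and 2 called lower became 1 and 1 with the replicate block and with transcript length offsets, and lay between 1 and 2 and between 1 and 3 when 1 library was left out. Of the genes of the 9 lists, 7 called lower between the primed groups became 2 with transcript length offsets and between 2 and 11 when 1 library was left out. Deviations of same-numbered libraries had r between 0.0839 and 0.148 for Tu-primed with parental, where 3 of 4 libraries were closest to their own number, between -0.156 and 0.0721 for Spl-primed with parental and between -0.164 and 0.0164 for the primed groups, so the replicate number was not taken as a pairing. The noncoding share of Xdh differed between Tu-primed and parental cells by 9.48 percentage points over TPM, against 7.63 over reads.

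Signs changed only where a gene was called neither before nor after. Against parental cells, Hmox1 in Tu-primed cells was at -0.00 with RLE factors and with DESeq2 and between -0.03 and 0.04 when 1 library was left out, and Ampd2 was at 0.24 with transcript length offsets and Noxa1 between -0.12 and 0.25. In Spl-primed cells, Nfe2l2 was at 0.02 with protein-coding transcripts only and between -0.07 and 0.00 when 1 library was left out, Gstt1 at -0.01 with RLE factors, with DESeq2 and without a filter and between -0.14 and 0.18, and Txnrd2 at 0.07 with protein-coding transcripts only and between -0.08 and 0.00. Between the primed groups, the ranges when 1 library was left out were -0.01 to 0.05 for Txnrd1, -0.03 to 0.19 for Cyba and -0.07 to 0.43 for Slc40a1. Over the 10 genes, 188 of 210 alternative values kept their sign and call in Tu-primed and 188 of 210 in Spl-primed against parental cells, and 194 of 210 between the primed groups. The order by length was the same with reads per effective length. With few counts, as for Slc40a1, Noxo1, Noxa1 and Gstt1, depth limits what can be said.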
